A study of Mus musculus with 2 samples.

Results

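Imprinted genes are transcribed mainly from the copy inherited from 1 parent. Their levels were examined in 2 male mice of the strain entry B6CASTF1/J, the hybrid offspring of C57BL/6J and CAST/EiJ parents, in the gastrocnemius of the calf at 25 days of age, with no treatment named in the labels. The members are 39 imprinted or imprint-cluster genes chosen by symbol, all of which matched the annotation, out of 55536 annotated genes. Each animal gave 1 library from 300 ng of total RNA, and the animals form 1 group, so nothing was tested between conditions. The labels number the tissue samples as different males but give both the same donor entry. The deposited tables give no split by parental allele, so the maternal or paternal class of a gene named here is background from other work and not a measurement.

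Imprints are set as DNA methylation in the germ line at control regions, and 1 such region often governs several neighbouring genes. Many imprinted genes act on growth before and shortly after birth, and several, Igf2 and H19 among them, are strongly transcribed in embryonic tissues and reduced in most tissues of rodents after birth, with skeletal muscle known for keeping H19 RNA. A cluster commonly pairs protein-coding genes with a long noncoding RNA made from the other parental copy.

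Levels are given as TPM, a relative abundance that accounts for transcript length and has the same total in every library, in animal 1 and then animal 2. The values come from the authors' gene tables, called the first quantification here, and a second transcript quantification of the same libraries, also by the authors, was summed to genes and set beside them. A gene was called detected at 1 TPM or more in both animals. By this rule 27 of the 39 imprinted genes were detected (69.2%), against 19.4% of all annotated genes and 32.9% of protein-coding, lincRNA and antisense genes. The members were picked by symbol from well-studied genes, with earlier results of these data known. Whether that choice accounts for their share was not tested. Of 45 further imprinted genes, 51.1% were detected. Of the 12 members not detected, 11 were under 1 TPM in both animals and 1, Nnat, reached it in animal 1 only. The median level of the 39 genes was 4.13 TPM in animal 1 and 4.14 TPM in animal 2. All annotated genes had a median of 0 TPM. Annotated genes at a mean of 1 TPM or more had a median of 6.35 TPM, but the median of the 39 also covers genes below that limit. Of the imprinted genes, 11 averaged 10 TPM or more, 16 between 1 and 10 TPM, and 2 of those 11 averaged 100 TPM or more. The imprinted genes thus ranged between H19, the 59th most abundant of all annotated genes, and genes with no count.

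**Figure D1:**
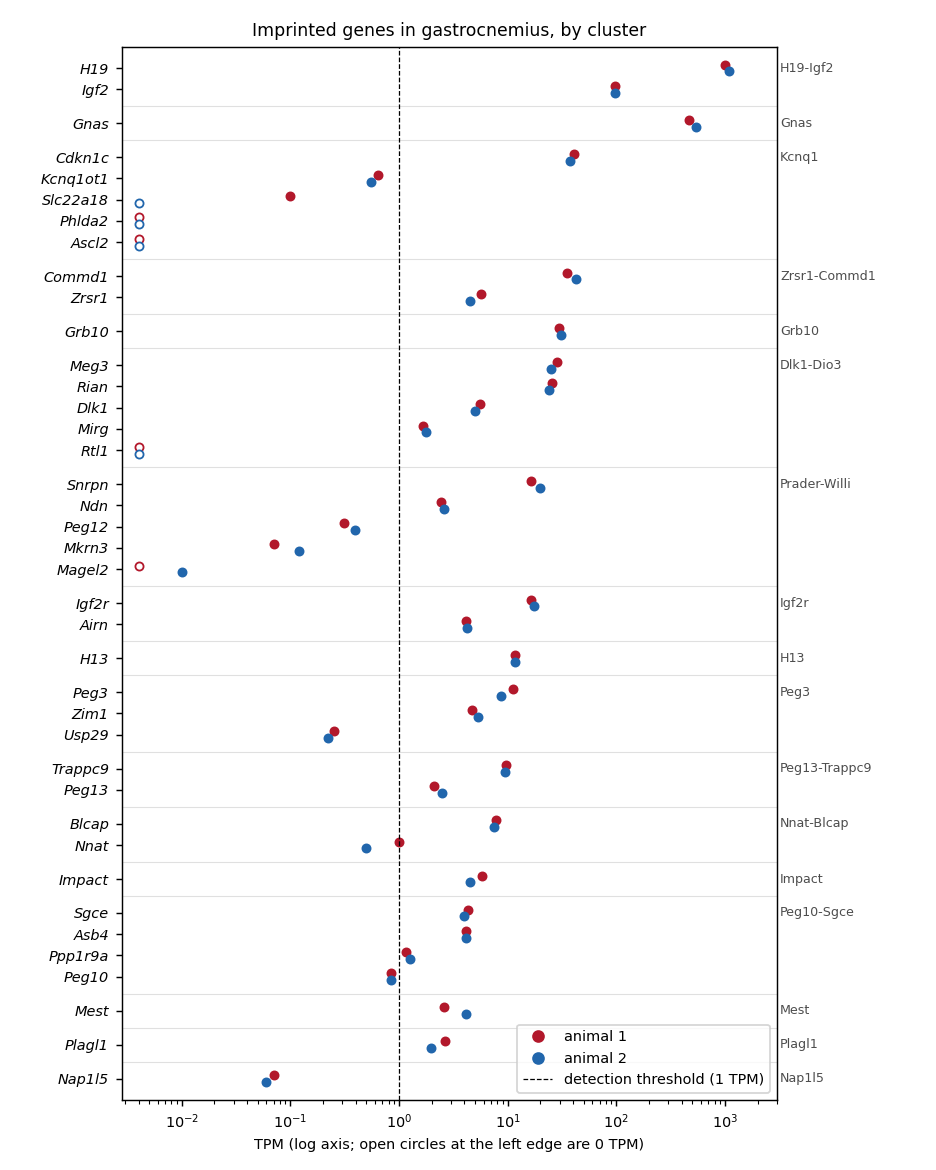
Deposited gene TPM (log axis) of the 39 imprinted genes in animal 1 and animal 2, grouped by imprinted cluster, with the 1 TPM detection threshold as a dashed line. H19 and Gnas lie at 998 and 469.5 TPM in animal 1 and at 1079 and 536 TPM in animal 2, and Rtl1, Phlda2 and Ascl2 lie at 0 in both animals.

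H19, the maternally expressed long noncoding RNA of the H19-Igf2 cluster (chr7:142575529-142578143, mm10, minus strand), had 998 TPM in animal 1 and 1079 TPM in animal 2, from 60428 and 68513 expected counts. It ranked 4th by mean TPM among 5854 annotated lincRNA genes. Gnas (chr2:174284320-174346744, plus strand), whose main product is the alpha subunit of the stimulatory G protein that couples receptors to cyclic AMP, had 469.5 TPM in animal 1 and 536 TPM in animal 2. It ranked 70th among nuclear protein-coding genes. Together H19 and Gnas made up 79.4% of the summed TPM of the 39 genes in animal 1 and 80.9% in animal 2. Summed over classes, the 13 maternally expressed genes had 1150 TPM in animal 1 and 1227 TPM in animal 2, and the 21 paternally expressed genes had 163 TPM in each animal. The remaining 5 genes, of mixed class and mostly Gnas by sum, had 534 TPM in animal 1 and 607 TPM in animal 2. The maternal sum was mostly H19, and the median of mean TPM was 4.99 in the maternal class and 2.32 in the paternal class.

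H19 RNA carries the hairpin of miR-675, which is known to be cut from H19 in muscle and other tissues. By annotation the hairpin lies in an exon, at bases 997 to 1080 of the 2286 bases of transcript H19-202. Small RNAs of this size are lost from libraries of longer fragments. Of the 58 annotated hairpins of imprinted miRNAs, 57 had 0 counts in both animals and 1, Mir433, had 1 count in animal 2. Because 54 had a deposited effective length of 0, at which no count can be given, these zeros do not themselves show such a loss. Mature miRNAs were therefore not measured here, and their sequences are shown because their host RNAs were measured. The mature products of the H19 hairpin and of the miR-483 hairpin within an Igf2 intron, from RefSeq (GRCm38.p6), are printed with the seed (bases 2 to 8) in capitals.
miR-675-5p: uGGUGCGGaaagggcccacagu
miR-675-3p: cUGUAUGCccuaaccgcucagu
miR-483-5p: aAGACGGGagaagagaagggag
miR-483-3p: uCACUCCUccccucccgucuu
These sequences have 4 different seeds.

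Igf2, the paternally expressed growth factor that neighbours H19 (chr7:142650766-142666816, minus strand), had 96.7 TPM in animal 1 and 98.1 TPM in animal 2, and ranked 445th among nuclear protein-coding genes. H19 was above Igf2 by a log2 ratio of 3.41 ± 0.07 (SD, n = 2), or 10.7-fold. Igf2r, the maternally expressed receptor that carries IGF2 to the lysosome for breakdown, had 16.2 TPM in animal 1 and 17.5 TPM in animal 2, so that the ligand's RNA stood above the receptor's by a log2 ratio of 2.53 ± 0.06 (SD, n = 2). Its antisense partner Airn, a paternal noncoding RNA needed to silence the paternal Igf2r copy, had 4.11 TPM in animal 1 and 4.19 TPM in animal 2. Of the exon bases of Igf2, 62.8% are shared with the annotated gene Gm49394 on the same strand, which received 0 counts in both animals. The split of reads between these 2 annotations therefore rests on the authors' counting.

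Of 17 genes of the IGF2 axis (ligand, receptors, substrates, binding proteins and cell-cycle inhibitors), 13 were detected. Igfbp5, an IGF-binding protein abundant in muscle, led with 113 TPM in animal 1 and 107 TPM in animal 2. Igfbp7 had 40.8 and 40.9 TPM, Irs1, a substrate of the insulin and IGF1 receptors, had 20.1 and 27.1 TPM, and Insr had 18.9 and 21.8 TPM in animal 1 and animal 2. Igf1, the ligand described as dominating after birth, had 10.2 TPM in animal 1 and 11.5 TPM in animal 2, and its receptor Igf1r had 3.05 and 3.70 TPM. In these libraries Igf1 RNA was below that of Igf2, which had 96.7 TPM in animal 1 and 98.1 TPM in animal 2. Igf2bp1, which codes for an RNA-binding protein that binds Igf2 mRNA, had 0 counts in both animals.

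Cdkn1c, the maternally expressed inhibitor of cyclin-dependent kinases also called p57 (chr7:143458339-143461050, minus strand), had 41.0 TPM in animal 1 and 37.5 TPM in animal 2. The antisense gene Gm44732, which overlaps 30.7% of its exon bases, had 7 counts in animal 1 and 11 in animal 2. Grb10, an adaptor that dampens signals of the insulin and IGF1 receptors (chr11:11930508-12038683, minus strand), had 29.5 TPM in animal 1 and 30.8 TPM in animal 2. Plagl1, a zinc finger transcription factor also called Zac1, had 2.67 TPM in animal 1 and 1.97 TPM in animal 2. Cdkn1c and Grb10 were thus above Plagl1 in both animals.

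Cdkn1c was the only one of 5 genes of the Kcnq1 cluster that was detected. Kcnq1ot1, the paternal antisense RNA that silences this cluster in cis, had 0.64 TPM in animal 1 and 0.55 TPM in animal 2, but 1711 and 1550 expected counts, because its annotated span is 93092 bases. Slc22a18, which codes for a transporter-like protein, had 3 counts in animal 1 and 0 in animal 2. Phlda2, known for restraining growth of the placenta, and Ascl2, a transcription factor of the placental trophoblast, had 0 counts in both animals. At this depth a gene with no count could still have up to 3 counts, which is 0.0855 CPM (counts scaled to the library total) in animal 1 and 0.0802 CPM in animal 2. Such limits cover counting error only. In whole muscle, fewer cells of a type and less RNA per cell cannot be told apart.

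Of the 5 members in the Dlk1-Dio3 cluster, the maternal noncoding RNAs Meg3 and Rian were the most abundant. Meg3 (chr12:109541001-109571726, plus strand) had 28.4 TPM in animal 1 and 24.9 TPM in animal 2. Rian, which hosts a row of C/D snoRNAs, had 25.6 TPM in animal 1 and 24.1 TPM in animal 2, and Mirg, host of many miRNAs, had 1.66 and 1.78 TPM. Meg3 and Rian did not differ in a stable order: the log2 ratio of Meg3 over Rian was 0.10 ± 0.08 (SD, n = 2) by the first quantification and -0.25 ± 0.24 by the second. Dlk1, a paternally expressed transmembrane protein with EGF-like repeats known for its part in muscle growth in callipyge sheep, had 5.57 TPM in animal 1 and 5.01 TPM in animal 2. Meg3 stood above Dlk1 by a log2 ratio of 2.33 ± 0.03 (SD, n = 2). Rtl1, the retrotransposon-derived paternal gene, had 0 counts in both animals.

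The strand opposite Rtl1 carries 6 hairpins of maternally expressed miRNAs, which can cleave Rtl1 RNA in the embryo because they are fully complementary to it. A search of the annotated Rtl1-201 transcript (6358 bases) found the full complement of all 11 mature sequences of these hairpins. Whether these miRNAs bear on the lack of Rtl1 counts here was not tested. One mature sequence of each hairpin, from RefSeq (GRCm38.p6), is printed with the seed in capitals, because each is complementary to Rtl1 RNA.
miR-431-3p: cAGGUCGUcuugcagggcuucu
miR-433-3p: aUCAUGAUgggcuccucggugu
miR-127-3p: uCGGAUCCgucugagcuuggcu
miR-434-3p: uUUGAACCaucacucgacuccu
miR-432: uCUUGGAGuagaucagugggcag
miR-136-3p: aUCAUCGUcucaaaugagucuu
Their 6 seeds differ. Over all 109 mature sequences of the imprinted hairpins there were 102 different seeds, of which 7 were shared by 2 sequences each, for example GGUAGAC in miR-379-5p and miR-1193-5p. By annotation, Mirg holds 14 of the 58 hairpins, 4 of them wholly in exons, Rian holds 3 and Meg3 holds 1.

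The Prader-Willi cluster on chromosome 7 was uneven. Snrpn, which codes for the spliceosomal protein SmN, had 16.3 TPM in animal 1 and 19.8 TPM in animal 2. Ndn, the MAGE family protein necdin, had 2.43 TPM in animal 1 and 2.58 TPM in animal 2. Snrpn stood above Ndn by a log2 ratio of 2.84 ± 0.14 (SD, n = 2). The other members were not detected. Peg12, of a family of GSK3-binding proteins, had 0.31 and 0.39 TPM in animal 1 and animal 2, Mkrn3, a makorin ring finger protein, had 5 and 9 counts, and Magel2, a MAGE family protein, had 0 and 1 counts.

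In the Peg3 cluster, Peg3, a paternally expressed zinc finger protein (chr7:6703892-6730431, minus strand), had 11.1 TPM in animal 1 and 8.67 TPM in animal 2. Zim1, a maternally expressed zinc finger gene beside it, had 4.65 TPM in animal 1 and 5.33 TPM in animal 2. Usp29, which starts near Peg3 on the other strand and codes for a ubiquitin-specific protease, had 0.25 TPM in animal 1 and 0.22 TPM in animal 2. Peg3 therefore stood above Usp29 by a log2 ratio of 5.39 ± 0.12 (SD, n = 2), although their annotated starts neighbour each other. Usp29 had 23 counts in each animal, and the ratio was 4.81 ± 0.21 by the second quantification. Of the Peg10-Sgce region, Sgce, which codes for epsilon-sarcoglycan of the muscle membrane complex, had 4.33 TPM in animal 1 and 3.98 TPM in animal 2. Peg10, the retrotransposon-derived gene that starts next to Sgce, had 0.85 TPM in each animal. The maternally expressed Asb4, an ankyrin repeat protein, had 4.13 and 4.14 TPM in animal 1 and animal 2, and Ppp1r9a, the actin-binding protein neurabin, had 1.16 and 1.27 TPM. Mest, a paternally expressed hydrolase-fold protein, had 2.57 TPM in animal 1 and 4.12 TPM in animal 2, and was thus lower in animal 1. Copg2, on the other strand, overlaps 23.1% of the exon bases of Mest and had 5.90 TPM in animal 1 and 6.08 TPM in animal 2, and reads of the overlap cannot be told apart if strand was not used.

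Several imprinted genes sit inside a larger host gene. In each of 5 such arrangements the host was above its guest in both animals. Commd1, a COMM domain protein, had 35.5 TPM in animal 1 and 42.4 TPM in animal 2, and its guest Zrsr1, a U2AF-related splicing gene, had 5.72 and 4.51 TPM. Trappc9, a subunit of a trafficking complex, had 9.55 TPM in animal 1 and 9.46 TPM in animal 2, and the noncoding Peg13 within it had 2.10 and 2.48 TPM. Blcap, a small protein linked to cell death, had 7.73 TPM in animal 1 and 7.51 TPM in animal 2, and Nnat, a small membrane protein, had 1.00 and 0.50 TPM, from 32 and 17 counts. H13, a signal peptide peptidase, had 11.7 TPM in animal 1 and 11.6 TPM in animal 2, above the retrogene Mcts2 (3.84 and 4.51 TPM) by a log2 ratio of 1.48 ± 0.17 (SD, n = 2). Nap1l5, a retrogene like those for nucleosome assembly proteins, had 2 counts in animal 1 and 3 in animal 2 inside Herc3, which had 21.6 TPM in animal 1 and 11.8 TPM in animal 2. Impact, an inhibitor of the kinase GCN2 with no imprinted neighbour among the members, had 5.76 TPM in animal 1 and 4.49 TPM in animal 2.

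Over 15 pairs of neighbouring, overlapping or ligand and receptor genes, the first-named gene was higher in both animals in 15, by log2 ratios between 0.10 and 7.95. The highest ratio, Herc3 over Nap1l5, rests on 2 and 3 counts of Nap1l5, and was 8.76 ± 1.12 (SD, n = 2) by the second quantification. The order in a pair was written down with these levels known, so the count describes the pairs and tests nothing. By the second quantification 14 of the 15 kept that order in both animals, with Meg3 over Rian as the exception. The second quantification gave higher TPM than the first for each of the 27 detected imprinted genes, by a median of 1.48-fold, and for nuclear protein-coding genes at a mean of 5 TPM or more by a median of 1.43-fold.

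**Figure D2:**
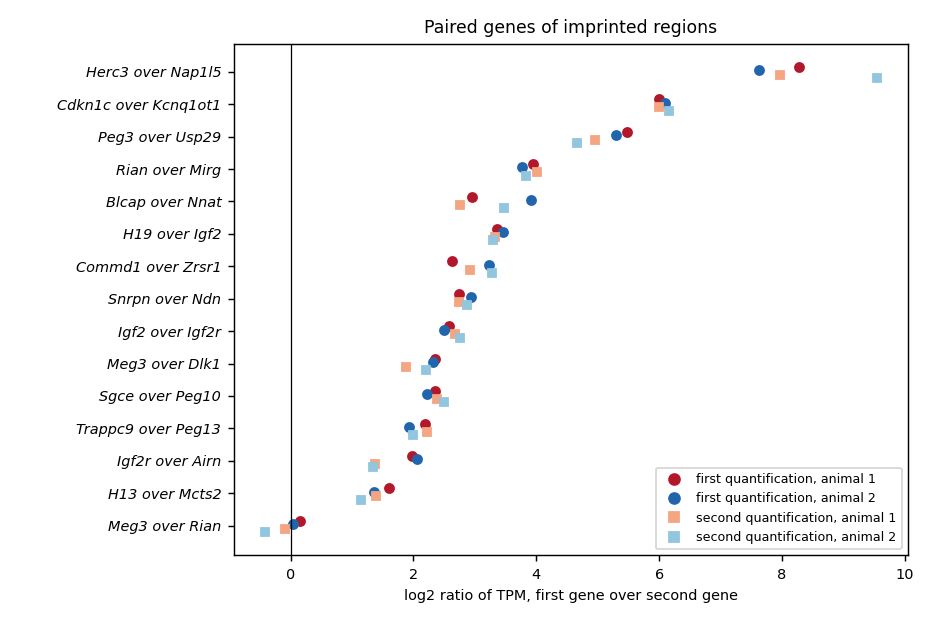
Log2 ratio of TPM, first gene over second gene, for 15 pairs of genes in imprinted regions, in animal 1 and animal 2, by the first quantification (circles) and the second (squares). Ratios were above 0 apart from Meg3 over Rian, which was 0.10 on average by the first quantification and -0.25 by the second.

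Many imprinted genes have several promoters, of which only some are imprinted, so transcripts were grouped by annotated start and their share of the gene's TPM was summed. The shares are descriptions of how the authors' software split reads among similar transcripts. Of 10 genes examined, 6 had the same leading transcript in both animals and both quantifications: Grb10, H19, Mest, Peg3, Igf2r and Cdkn1c. Gnas, Igf2, Meg3 and Snrpn did not.

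Gnas has, along the gene, starts for the neuroendocrine protein Nesp55, for the extra-large form XLas, for the noncoding exon 1A RNA and for the stimulatory G protein alpha subunit. In animal 1, 98.5% of Gnas TPM came from the 4 transcripts starting at chr2:174330006-174330287, the start of the G protein subunit, and in animal 2 it was 98.7%. The second quantification put 84.0% in animal 1 and 84.7% in animal 2 there. It put 15.6% and 14.6% on 6 transcripts starting at chr2:174327570-174328023, by position the exon 1A start. The first quantification put 0.20% and 0.47% on the exon 1A start, so the quantifications disagreed on its share. Transcripts from the Nesp55 start had 0.29% in animal 1 and 0.18% in animal 2, and those from the XLas start had 0.07% and 0.06%. Both quantifications thus put most of the gene's RNA on 1 start, which is transcribed from both parental copies in most tissues. Within that start the leading transcript was Gnas-207 in animal 1 with 34.0% and Gnas-206 in animal 2 with 35.9%, and 3 transcripts with nearly the same sequence had between 31.3% and 35.9% each.

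Grb10 is transcribed from the maternal copy at its upstream start in most tissues and from the paternal copy at downstream starts in neurons. The upstream start at chromosome 11 position 12037401 (Grb10-201) took 82.8% of Grb10 TPM in animal 1 and 80.6% in animal 2, and 65.0% and 71.6% by the second quantification. The start at position 12027971 (Grb10-203) took 11.2% in animal 1 and 4.25% in animal 2, and the starts at 12026732 and 12026324 took 4.27% and 13.5%. Animal 1 had the larger share at the first of these downstream groups and animal 2 at the second, and both groups were below the upstream start in each library.

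The windows around the upstream and the first downstream start of Grb10 are shown because they differ in base composition. Each runs over 300 bases on the minus strand, 250 before to 50 after the RefSeq start (GRCm38.p6, chr11:12037371-12037670 and chr11:12027922-12028221). Capitals mark TGCCGC or its reverse complement GCGGCA, the hexamer that the imprint-protecting factor ZFP57 binds when methylated.
Grb10-201: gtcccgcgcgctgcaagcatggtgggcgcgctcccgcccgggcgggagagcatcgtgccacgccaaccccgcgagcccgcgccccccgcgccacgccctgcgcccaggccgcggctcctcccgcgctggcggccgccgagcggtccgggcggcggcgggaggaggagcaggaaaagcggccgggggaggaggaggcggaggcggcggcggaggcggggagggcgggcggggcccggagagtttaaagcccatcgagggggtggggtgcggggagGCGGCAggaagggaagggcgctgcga
Grb10-203: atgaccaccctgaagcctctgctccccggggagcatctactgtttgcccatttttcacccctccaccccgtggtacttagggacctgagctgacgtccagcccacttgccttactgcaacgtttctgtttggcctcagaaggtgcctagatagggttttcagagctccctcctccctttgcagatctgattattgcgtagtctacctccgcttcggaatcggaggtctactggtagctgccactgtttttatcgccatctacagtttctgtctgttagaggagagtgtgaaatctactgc
The upstream window holds 45 CpG dinucleotides and 1 match, and the downstream window holds 9 CpG dinucleotides and 0 matches.

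Igf2 was spread over 7 start groups, and no group led in both animals by the first quantification. Igf2-205, which led in animal 1, took 30.2% in animal 1 and 18.2% in animal 2. The start shared by Igf2-201 and Igf2-202, which led in animal 2, took 20.5% in animal 1 and 20.4% in animal 2. Igf2-203 took 21.8% and 19.3%, and Igf2-207 took 5.83% and 18.6%. The second quantification gave 0% to Igf2-207 and 19.1% in animal 1 and 33.6% in animal 2 to Igf2-209, which the first gave 0%. The effective length that the authors' software used for Igf2 was 2392 bases in animal 1 and 1942 bases in animal 2, and it enters the gene's TPM.

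Mest came almost wholly from the start at chromosome 6 position 30738050, with 100% in animal 1 and 96.4% in animal 2. By the second quantification that start took 100% in animal 1 and 58.4% in animal 2, with 36.0% in animal 2 on the start near position 30733454. These shares rest on 159 counts in animal 1 and 256 in animal 2. The RefSeq window of the main start (GRCm38.p6, chr6:30737800-30738099, plus strand) is shown with both hexamer matches in capitals.
Mest-211: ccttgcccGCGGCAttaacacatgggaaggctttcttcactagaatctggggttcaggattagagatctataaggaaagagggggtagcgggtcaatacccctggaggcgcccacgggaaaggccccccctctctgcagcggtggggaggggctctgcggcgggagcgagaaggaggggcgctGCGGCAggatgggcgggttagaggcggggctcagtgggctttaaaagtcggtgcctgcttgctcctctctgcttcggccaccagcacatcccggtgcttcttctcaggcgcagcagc
It holds 17 CpG dinucleotides.

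For Snrpn the quantifications disagreed outright on the transcript. The first put 100% of Snrpn in both animals on Snrpn-201, which starts at chromosome 7 position 60005111, and the second put 100% on Snrpn-202, which starts at position 60140219. Snurf, an upstream reading frame of the same RNA annotated as a gene of its own, had 51.4 TPM in animal 1 and 50.5 TPM in animal 2 by the first quantification, from only 174 and 180 expected counts, and 0 TPM by the second. Snurf shares 216 and Gm38393 shares 589 of the 2159 exon bases of Snrpn, so the level of Snrpn is uncertain by what the software assigned to these annotations. Both RefSeq windows (GRCm38.p6, minus strand, chr7:60005150-60005449 for the start 88 bases before that of Snrpn-201 and chr7:60140176-60140475 for Snrpn-202) are shown with the hexamer in capitals.
Snrpn-201: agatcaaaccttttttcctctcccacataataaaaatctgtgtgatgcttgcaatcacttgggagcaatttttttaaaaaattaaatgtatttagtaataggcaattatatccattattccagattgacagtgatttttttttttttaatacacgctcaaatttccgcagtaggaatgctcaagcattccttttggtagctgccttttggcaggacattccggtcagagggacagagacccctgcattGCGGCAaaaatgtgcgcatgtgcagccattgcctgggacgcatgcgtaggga
Snrpn-202: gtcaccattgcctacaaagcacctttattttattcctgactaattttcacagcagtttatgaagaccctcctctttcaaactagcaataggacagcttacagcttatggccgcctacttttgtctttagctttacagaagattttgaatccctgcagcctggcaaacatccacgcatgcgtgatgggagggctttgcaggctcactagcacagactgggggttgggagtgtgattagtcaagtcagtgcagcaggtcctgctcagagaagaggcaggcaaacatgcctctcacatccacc
The first holds 7 CpG dinucleotides and 1 match, and the second holds 3 CpG dinucleotides and 0 matches.

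**Figure D3:**
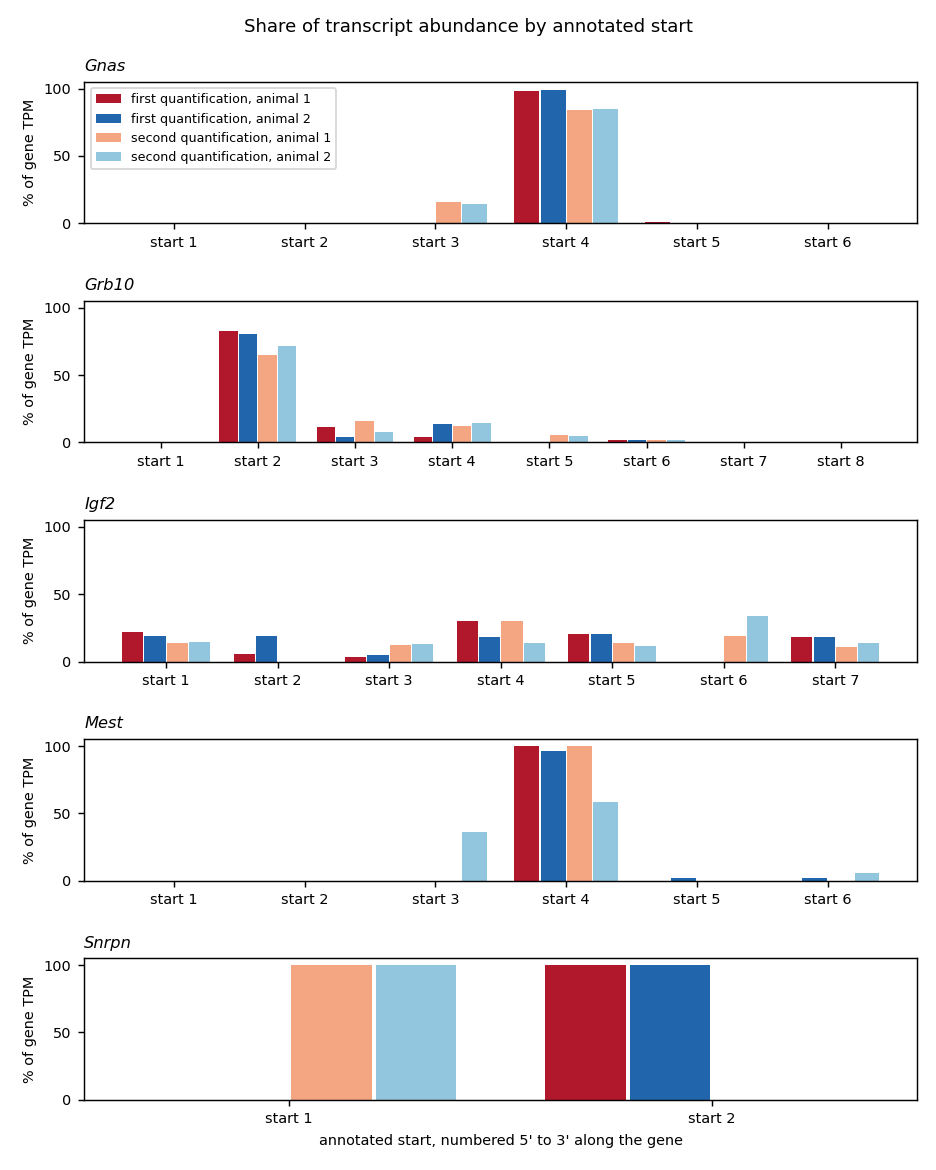
Percent of each gene's TPM from each annotated start, numbered from 5' to 3' along the gene, for Gnas, Grb10, Igf2, Mest and Snrpn, in animal 1 and animal 2 and by both quantifications. Gnas start 4 took 98.5% and 98.7% by the first quantification and 84.0% and 84.7% by the second, and Snrpn lay wholly on start 2 by the first and on start 1 by the second.

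RefSeq promoter windows of the same size were found for 31 of the 39 genes, 47 windows in all, with H19, Rtl1, Cdkn1c, Peg10, Sgce, Impact, Peg13 and Trappc9 not matched. The hexamer TGCCGC, on either strand, was in 11 of the 47 windows (23.4%), against 11.6% of all 32851 windows in the table. Counted by gene it was 10 of 31 (32.3%), against 13.1%. The windows of imprinted genes also held more CpG dinucleotides, with a median of 13 against 7, and whether the hexamer share moves with that was not tested. A match is a run of letters and not a site of binding.

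The 2 animals were also compared as libraries, which asks whether a gene differed by more than sampling error, not whether a condition changed it. Rounded expected counts were scaled by TMM, and an exact two-sided binomial test with Benjamini-Hochberg adjustment was run over the 14754 genes whose counts summed to at least 20. Of the imprinted genes, 32 could be tested. None of the 32 passed both limits, an adjusted p under 0.05 and more than 2-fold between the animals, where 1.8% of all tested genes did. At an unadjusted p under 0.05 there were 17 of 32, against 24.6% of all tested genes. The nearest was Nnat, with a log2 ratio of 1.10 (95% counting interval 0.22 to 2.06) and an adjusted p of 0.062 by the exact binomial test. By the counts of the second quantification Nnat was called, with a log2 ratio of 1.34 and an adjusted p of 0.024.

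At an adjusted p under 0.05 with no limit on the fold, 11 of the 32 imprinted genes were called, where 14.4% of all tested genes were. Of 11123 tested genes at a mean of 1 TPM or more, 1049 were higher and 894 lower in animal 1. The test calls smaller differences as counts rise, and the backgrounds here and at the unadjusted p were not matched for counts. Of the 11 imprinted genes called, 9 were higher (background 7.74%) and 2 lower (background 6.64%) in animal 1 than in animal 2. This split depended on scaling: by the library total it was 5 and 5, and by the ratio of TPM 7 and 6. It was 9 and 2 by DESeq2 size factors, 9 and 3 by the total count of spike-in RNAs and 10 and 1 by the second quantification. Over all tested genes the split was 1142 and 979 by TMM, 605 and 2936 by the library total and 969 and 3723 by the ratio of TPM, and library total and ratio of TPM set the median log2 ratio of genes at 5 TPM or more to -0.11 and -0.12. The ratios of the called genes were small. Peg3 had a log2 ratio of 0.48 (95% counting interval 0.39 to 0.57), Plagl1 0.48 (0.19 to 0.77) and Meg3 0.40 (0.28 to 0.52). Impact, Zrsr1, Kcnq1ot1 and Cdkn1c had 0.38, 0.36, 0.34 and 0.26. Scaling by the library total ended the calls of Impact, Zrsr1, Plagl1 and Grb10, with adjusted p of 0.0767, 0.107, 0.0502 and 0.0622 by the exact binomial test. Over the other scalings and the second table the lowest adjusted p of Impact, Zrsr1 and Plagl1 by that test was 0.00992, 0.00253 and 0.0104, and the values by the library total were the highest. On the lower side Mest had a log2 ratio of -0.48 (-0.78 to -0.19) and Gnas one of -0.07 (-0.10 to -0.05). Mest was not called by the second quantification (adjusted p = 0.0575 by the exact binomial test, and between 2.07e-05 and 0.0575 over the scalings and that table).

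Igf2 and Grb10 were called higher in animal 1 by counts, with log2 ratios of 0.40 and 0.19, but by the ratio of TPM the values were -0.020 and -0.062. The counts of Igf2 were 6674 in animal 1 and 5820 in animal 2, and those of Grb10 were 4009 and 4050. For both genes the deposited effective length was longer in animal 1, and for Grb10 it was 4705 bases in animal 1 and 4300 bases in animal 2. The ratio of TPM was also shifted as a whole, with a median log2 ratio of -0.12 over 5968 genes. Igf2 and Grb10 both lay above that median. The parts of effective length and of this shift in the change of sign were not tested. Because the sign changed with the measure, the direction of Igf2 and Grb10 between the animals cannot be given. H19, the most abundant of the imprinted genes, had a log2 ratio of 0.02 (0.01 to 0.04), with an adjusted p of 0.059 by the exact binomial test. The median absolute log2 ratio between the animals was 0.17 over the 32 imprinted genes and 0.14 over all tested genes.

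**Figure D4:**
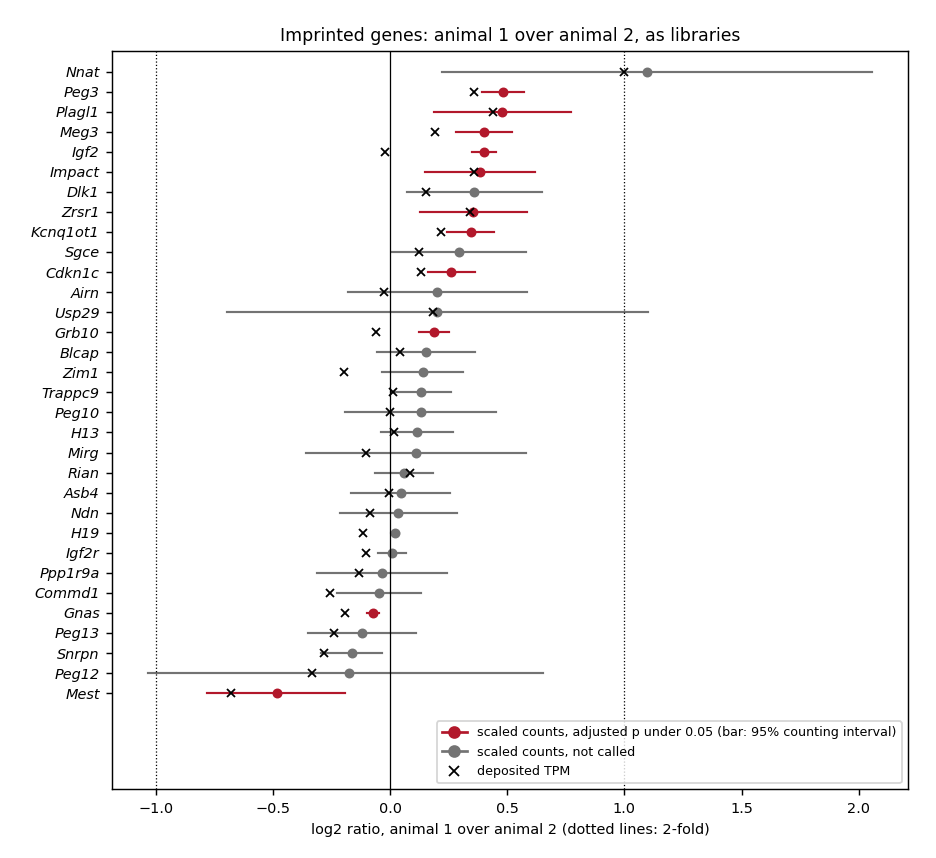
Log2 ratio of animal 1 over animal 2 for the 32 tested imprinted genes, from scaled counts with 95% counting intervals (circles and bars) and from deposited TPM (crosses), with 2-fold marked by dotted lines. The 11 genes called at an adjusted p under 0.05 are red, and Igf2 and Grb10 lie at 0.40 and 0.19 by counts but at -0.020 and -0.062 by TPM.

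The tissue label was checked with markers. All 8 skeletal muscle fibre markers were detected, with a summed level of 95144 TPM in animal 1 and 95440 TPM in animal 2. Satellite cell markers (2 of 6 detected) summed to 12.1 TPM in animal 1 and 14.0 TPM in animal 2. Of these, Cdh15 gave 4.99 and 6.44 TPM, Chodl 4.18 and 4.56 TPM, and Pax7 0.56 and 0.62 TPM. Fibroblast markers (6 of 6 detected) summed to 1257 TPM in animal 1 and 852 TPM in animal 2, with Col1a1 at 864 and 469.1 TPM. Adipocyte markers (0 of 5 detected) summed to 5 TPM in animal 1 and 2.38 TPM in animal 2, of which Adipoq gave 2.07 and 0.74 TPM. Endothelial markers (5 of 5) summed to 36.7 and 46.6 TPM, and macrophage markers (3 of 5) to 16 and 16.5 TPM. The macrophage markers did not move together, with Mrc1 at 4.56 and 5.95 TPM but C1qa at 5.93 and 4.52 TPM. Neuron markers (0 of 5 detected) summed to 0.89 TPM in animal 1 and 1.33 TPM in animal 2, of which Stmn2 gave 0.67 and 1.22 TPM. The part of these cell types in the differences of imprinted genes between the animals was not tested.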

How the data were processed

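Total RNA-seq of 2 animals was used, with 1 library each. Expected counts, TPM, FPKM and the percent of a gene held by each transcript were computed by the authors, in columns that RSEM writes, per the file headers. Estimated counts and TPM of a second quantification, deposited per transcript in kallisto's columns, were summed to genes. The deposited descriptions name mm10 and GENCODE M21. For the aligner, tool versions and strand setting the sources used here give nothing, so overlapping and antisense genes are uncertain.

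Library totals were 35098487 and 37428588 expected counts. Counts were rounded and scaled by TMM (edgeR 4.0.16, R 4.3.3). The exact binomial test (scipy 1.17.1) used a prior count of 0.5 for ratios. It compares these libraries, and its error is sampling error alone, which may be technical. DESeq2 1.42.0 gave size factors for 1 alternative. The script was tested on simulated data. Members, lists and pairs were chosen with earlier results of these data known. All members are named. Of other lists the 4 highest and those called over 2-fold are named, with marker lists given as sums and called genes (1 marker list is not reported here), and Igf1, Igf1r, Igf2bp1, Pax7, Zfp57, Mcts2, Herc3 and the genes that overlap a member are named beyond that rule. Starts within 500 bases were merged.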

Additional observations from a re-analysis of the deposited data

How the results depend on the processing

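The number of imprinted genes detected was between 24 and 30 of 39 over the 6 thresholds and tables tried and over leaving out either animal. The number called over 2-fold was 0 by each scaling, count minimum and fold tried, except 1 (Nnat) by the second transcript table. At adjusted p alone it was between 10 and 13, and of the 11 genes called, 7 were also called by the library total, 9 by the ratio of TPM and 10 by the second table. The median level of 4.15 TPM was 6.30 TPM by the second transcript table and 4.67 by posterior mean TPM, and 4.13 to 4.14 TPM with 1 animal left out. Windows with 2 or more hexamer matches numbered 3 of 47 (all windows 1.53%), against 11 with 1 or more, and 2 of the 3 are Mest windows that overlap almost wholly. Directions turned for Igf2 (-0.020) and Grb10 (-0.062) by the ratio of TPM and for Meg3 over Rian (-0.25) by the second table. Their causes were not tested. The second table as an alternative for start shares was chosen after seeing the data. No paired analysis was possible because the animals form 1 group. With 1 library an animal, no spread within an animal was measured, and genes at 0 are limited by depth.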

Other observations

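Of 25 genes that set, read or protect DNA methylation and imprints, 19 were detected, with a median level of 4.28 TPM in animal 1 and 4.69 TPM in animal 2. Dnmt3a, a de novo DNA methyltransferase, led with 34.8 TPM in animal 1 and 42.8 TPM in animal 2. Trim28, the corepressor that ZFP57 recruits, had 23.7 TPM in each animal, Ogt had 22.9 and 22.2 TPM, and Atrx had 13.9 and 12.2 TPM in animal 1 and animal 2. Zfp57 itself had 12 counts in animal 1 and 7 in animal 2. Dnmt3l and Dppa3, which act in germ cells and the early embryo, had 0 counts in both animals. At an adjusted p under 0.05 by the exact binomial test, 3 of the 22 tested were higher and 2 lower in animal 1, against 7.74% and 6.64% of all tested genes. The split was 0 and 3 by the library total and 2 and 7 by the ratio of TPM. It stayed 3 and 2 by DESeq2 size factors and by the total count of spike-in RNAs.

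Of 45 further imprinted genes, 23 were detected, with a median level of 1.13 TPM in animal 1 and 1.06 TPM in animal 2. Dcn, a proteoglycan of connective tissue and also a fibroblast marker, had 127 TPM in animal 1 and 119 TPM in animal 2. Slc38a4, an amino acid transporter, had 76.3 TPM in animal 1 and 74.2 TPM in animal 2, and Nap1l4, a histone chaperone, had 56.96 and 68.06 TPM. Of the 30 tested, 3 were higher and 2 lower in animal 1 (background 7.74% and 6.64%), and 0 were called over 2-fold. By the library total the split was 3 and 6, and by the ratio of TPM 3 and 9. It was 3 and 2 by DESeq2 size factors and 3 and 3 by the total count of spike-in RNAs. Of the IGF2 axis genes, 6 of 13 tested were higher and 2 lower in animal 1, where 14.4% of all tested genes were called in either direction. This split was 4 and 4 by the library total and 3 and 5 by the ratio of TPM, but 6 and 2 by DESeq2 size factors. By the total count of spike-in RNAs it was 5 and 3. Irs2, a substrate of the insulin receptor, was called over 2-fold by counts scaled by TMM. Its log2 ratio was 1.03, with a counting interval of 0.92 to 1.15 that reaches below 2-fold. Its levels of 9.35 TPM in animal 1 and 4.96 TPM in animal 2 differed by less than 2-fold. Whether Irs2 passes the 2-fold limit by the other scalings is not given here.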
